A study of Mus musculus with 2 samples.

Results

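The 10 genes described here store, move and free iron in macrophages, and their RNA was measured for whole genes and for single transcripts. The members were taken by symbol: Ftl1, Fth1 and Ncoa4 for storage and release, Tfrc, Slc11a1 and Slc11a2 for uptake, Slc40a1 for export, Hmox1 for heme degradation, and Aco1 and Ireb2 for regulation. All 10 were found among the 55536 annotated genes. They were measured in the cytosolic RNA of mouse bone-marrow-derived macrophages of the C57BL/6J strain. These primary cells had been treated for 75 min with lipid A at 100 ng/ml, the moiety of bacterial endotoxin that Toll-like receptor 4 senses. Total RNA was depleted of ribosomal RNA, and 1 µg of RNA went into each library. The study held 1 group with 2 libraries, called replicates 1 and 2. The labels number them as biological replicates but give a single donor identifier for both. They do not state separate animals or cultures, so an SD here may be partly technical. Sex and age were not collected, and which growth factor made the macrophages is not given in the sources used here. Unstimulated cells, other times and the nuclear fraction were not analysed here. The values therefore give levels after lipid A and the distance between the libraries, with no test between conditions.

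Macrophages take up iron bound to transferrin through the transferrin receptor and recover iron from the heme of engulfed red cells. Iron that is not used or exported through ferroportin is stored inside ferritin, a shell of heavy and light chains. The iron regulatory proteins bind a short stem-loop in messenger RNA, the iron-responsive element (IRE), when iron is scarce. Binding in the 5′ untranslated region (UTR) blocks translation, and binding in the 3′ UTR protects the RNA from decay. Cells thereby change ferritin and ferroportin synthesis without needing a change in the RNA level.

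The sequences that match the element are given first because the division of counts among transcripts is read against them. Each transcript was searched for the loop CAGTGN closed by 5 base pairs, G-U pairs allowed, with a C just before the stem, on the transcript strand. Whether that C was unpaired was not checked. The search found a match in the UTRs of 4 of the 10 genes. Of 21901 genes with a coding transcript, 0.142% held such a match in a 5′ UTR and 0.584% in a 3′ UTR. A match is a description of letters and does not show that a protein binds there. The elements below come from the GENCODE M21 transcripts on mm10, 5′ to 3′ on the transcript strand, with the 6 bases of the loop in capitals.
Ftl1, 5′ UTR, chr7:45459778-45459807 (−): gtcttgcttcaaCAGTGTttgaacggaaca
Fth1, 5′ UTR, chr19:9982732-9982761 (+): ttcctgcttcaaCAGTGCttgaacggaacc
Slc40a1, 5′ UTR, chr1:45925464-45925493 (−): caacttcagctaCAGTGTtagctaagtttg
Tfrc, 3′ UTR, chr16:32631219-32631248 (+): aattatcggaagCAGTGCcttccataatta
Tfrc, 3′ UTR, chr16:32631598-32631627 (+): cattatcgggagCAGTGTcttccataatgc
Tfrc, 3′ UTR, chr16:32631663-32631692 (+): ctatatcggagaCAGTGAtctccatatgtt
Tfrc, 3′ UTR, chr16:32631710-32631739 (+): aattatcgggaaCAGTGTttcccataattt
Slc11a2, 3′ UTR, chr15:100395152-100395181 (−): agccatcagagcCAGTGTgtttctatggtt

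The Slc11a2 element was found only when 1 unpaired base was allowed in the 3′ arm of the stem, a search added after the first one held no match in that gene. With it, 5 of the 10 genes held a match, against 0.374% of coding genes in a 5′ UTR and 1.63% in a 3′ UTR. No match lay in the windows searched in Ncoa4, Slc11a1, Hmox1, Aco1 or Ireb2. The ferritin elements differed from each other at 4 of 30 bases. With the Fth1 base first, the position counted from 1 at the 5′ end of the 30 bases and the Ftl1 base last, these were T1G, C4T, C18T and C30A. None of the 4 lay in the stem that closes the loop. The Slc40a1 element differed from that of Fth1 at 17 of 30 bases although it shared the loop start and the place of the C before the stem. In Tfrc the 4 matches lay downstream of the coding sequence, with loops starting at nucleotides 3327, 3706, 3771 and 3818 of the 4890 of Tfrc-201.

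**Figure D1:**
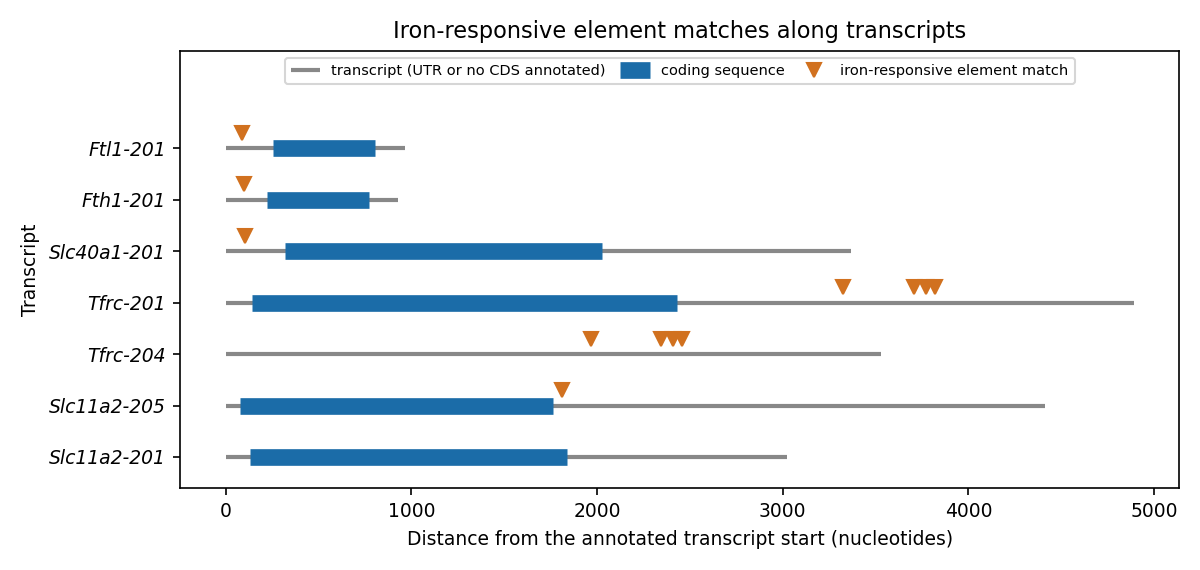
Position of the element matches (triangles) along 7 transcripts, with the distance from the annotated transcript start in nucleotides on the horizontal axis, coding sequence as thick bars and the rest as thin lines. The loops start at nucleotides 90, 99 and 102 in Ftl1-201, Fth1-201 and Slc40a1-201, before the coding sequence, and after it in Tfrc-201 and Slc11a2-205, while Slc11a2-201 has none.

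The levels of the members spanned a wide range with ferritin at the top. Levels are in TPM, an abundance that allows for transcript length and has the same sum in each library over every RNA in the table, abundant small RNAs included. At a mean of 1 TPM or more all 10 genes were detected, where 16.5% of all annotated genes and 39.3% of protein-coding genes were. The members had a median of 88.5 TPM, with 85.2 in replicate 1 and 92.8 in replicate 2, against 0.11 TPM over all protein-coding genes and 6.14 over the detected ones. By mean level, 4 of the 10 reached 100 TPM (Ftl1, Fth1, Tfrc and Slc40a1), a level reached by 1.61% of protein-coding genes.

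The order of mean levels was Ftl1, Fth1, Tfrc, Slc40a1, Ncoa4, Hmox1, Slc11a1, Slc11a2, Aco1 and Ireb2. The ranges of neighbouring genes overlapped for Ftl1 with Fth1 and for Hmox1 with Slc11a1, so by range neither pair could be ordered. Within each library Ftl1 was above Fth1, while Hmox1 and Slc11a1 changed order between the libraries. The other neighbours did not overlap between the libraries. The step from Fth1 to Tfrc was the widest, a ratio of mean TPM of 31.2, and the next was from Slc11a1 to Slc11a2, a ratio of 5.16. The second deposited quantification gave the same order of means. With the leading transcript of each gene alone, Hmox1 at 78.6 TPM came before Ncoa4 at 61.7. Slc11a2 at 6.17 TPM then came last, after Aco1 at 8.59 and Ireb2 at 6.71. That measure leaves out Slc11a2-201, another coding transcript, with 7.25 TPM in replicate 1 and 8.03 in replicate 2.

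**Figure D2:**
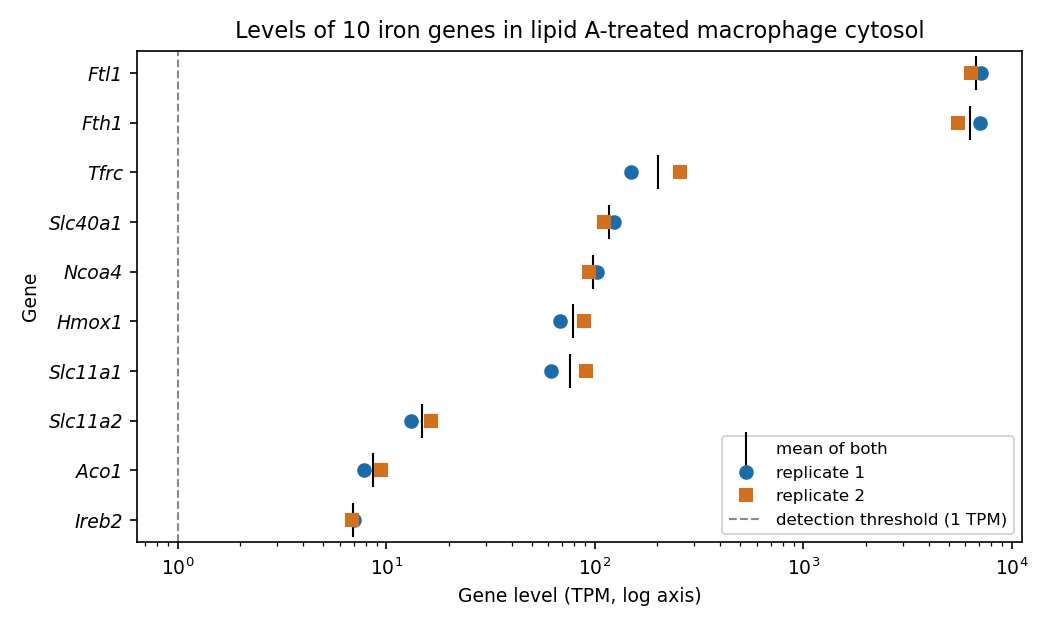
Level of each gene in TPM on a log axis, with a circle for replicate 1, a square for replicate 2, a bar for their mean and a dashed line at the detection threshold of 1 TPM. All 10 genes lie right of the line, from Ireb2 at 6.94 TPM to Ftl1 at 6771 TPM, and Ftl1 and Fth1 stand apart from the rest.

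Ferritin light and heavy chain RNAs were the 2 most abundant nuclear-encoded messenger RNAs in each library. The light chain promotes mineral formation inside the shell, and the heavy chain oxidises the iron that enters. Ftl1 (chr7:45457944-45459884) stood at 7143 TPM in replicate 1 and 6399 in replicate 2, a mean of 6771 ± 526 TPM (SD, n = 2). These values rested on 618897 and 467173 expected counts. Fth1 (chr19:9980598-9985098) stood at 7041 and 5546 TPM in replicates 1 and 2, a mean of 6293 ± 1057, from 577606 and 382442 counts. Both genes were lower in replicate 2, Fth1 by more. The pair made up 6.57% of the TPM of nuclear-encoded protein-coding genes in replicate 1 and 5.47% in replicate 2. They took 2.15% and 1.69% of all counts in genes.

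Heavy and light chain RNA were close to equal in amount. The Fth1 to Ftl1 ratio of TPM was 0.986 in replicate 1 and 0.867 in replicate 2, a mean of 0.926 ± 0.0842 (SD, n = 2). In the second quantification it was 0.985 and 0.884. Light chain RNA was the higher in each library, but the ranges of the genes overlapped.

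Almost all ferritin counts fell in one spliced messenger RNA per gene, and that RNA carries the element. Ftl1-201, of 968 nucleotides, had 7102 and 6357 TPM in replicates 1 and 2, and Fth1-201, of 929, had 6999 and 5461. Transcripts holding the element took 99.9% of the Ftl1 count in each library and 99.7% of the Fth1 count. The counts of minor Fth1 transcripts were divided differently by the quantifications: the short coding Fth1-209 had 270 and 1924 counts in the first and 733 and 10156 in the second. It shares 534 of its 592 nucleotides with Fth1-201. A transcript of Ftl1 marked for nonsense-mediated decay, Ftl1-202, held 0.463% and 0.446% of the count.

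Ferritin genes have many processed copies in the mouse genome, so reads could be shared. With 95% identity over 50% of the leading transcript as the limit, 5 other genes matched Ftl1 and none matched Fth1. Ftl1-ps1 (chr13:74399694-74407346), annotated as protein-coding, was 99.6% identical over 94.0% of Ftl1-201. It was assigned 8152 and 4991 counts in the first quantification and 1741 and 949 in the second, so its own level is uncertain. Its element was identical to that of Ftl1, with 0 differing bases of 30. The 5 genes together held the equivalent of 1.32% of the Ftl1 count in replicate 1 and 1.07% in replicate 2, and adding them gave a Ftl1 level of 6856 TPM.

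Ncoa4, the receptor that delivers ferritin to the lysosome for degradation and so releases its iron, was far less abundant than its cargo. It (chr14:32159865-32179855) stood at 102 TPM in replicate 1 and 94.4 in replicate 2, a mean of 98.3 ± 5.56 (SD, n = 2), from 28775 and 22211 counts. It ranked 326 in replicate 1 and 370 in replicate 2 among nuclear-encoded protein-coding genes. Ncoa4-201 held 79.3% and 83.0% of the count, and the longer Ncoa4-202 held 16.5% and 12.6%, or 5.77% and 5.02% in the second quantification. The 462-nucleotide Ncoa4-203 held 2.34% and 2.27% of the count but 23.4% and 22.5% of the gene's TPM, because TPM divides by length. The leading transcript alone, which leaves out Ncoa4-202 as well as such fragments, had a mean of 61.7 TPM. A processed pseudogene found by sequence, Gm6768, was 99.9% identical over 56.2% of Ncoa4-201 and held 236 and 169 counts.

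The transferrin receptor was the most abundant of the uptake genes and differed most between the libraries. Tfrc (chr16:32608920-32632794) stood at 149 TPM in replicate 1 and 255 in replicate 2, a mean of 202 ± 75.4 (SD, n = 2), from 73671 and 109349 counts. Among nuclear-encoded protein-coding genes it ranked 210 in replicate 1 and 111 in replicate 2. Counts were next scaled by TMM, a library-size correction resting on genes that differ little. The ratio of replicate 2 to replicate 1 was then 1.70, with a 95% exact counting interval of 1.68 to 1.71. Among all 10091 genes averaging at least 100 counts, 2.68% lay further from a ratio of 1.

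Tfrc RNA was divided between 2 transcripts, and that division depended on the quantification. Tfrc-201, the full coding transcript, held 57162 and 92429 counts in replicates 1 and 2. Tfrc-204, annotated with a retained intron, held 16487 and 16897 counts, 22.4% and 15.5% of the gene, with exact counting intervals of 22.1 to 22.7% and 15.2 to 15.7%. In the second quantification Tfrc-204 had 0 counts in each library, which allows a share of up to 0.00381% and 0.00259% by counting alone. Of its 3527 nucleotides 326 are absent from Tfrc-201, and 1689 of Tfrc-201 are absent from it. Why the quantifications differed was not tested. Both transcripts hold the 4 elements, and 99.97% and 99.98% of the Tfrc count fell in transcripts with them.

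Slc11a1, also known as Nramp1, encodes a pump for iron and other metals in the phagosome and is a known host resistance gene. Only its RNA was measured, and whether cells of this mouse strain make a working protein was not examined here. It (chr1:74375195-74386062) stood at 61.7 TPM in replicate 1 and 91.1 in replicate 2, a mean of 76.4 ± 20.8 (SD, n = 2), from 9204 and 12275 counts. Its ratio of scaled counts was 1.53, with an interval of 1.49 to 1.57, and 4.36% of the same 10091 genes lay further from 1. Slc11a1-201 held 89.8% and 91.4% of the count. The 378-nucleotide Slc11a1-206, which encodes no annotated protein, held 4.53% and 3.87% of the count but 36.3% and 33.1% of the TPM. The leading transcript alone had 34.0 and 54.8 TPM, and its libraries differed in the same direction as the gene.

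Slc11a2, or DMT1, carries ferrous iron from the endosome to the cytosol after transferrin uptake, and was expressed at a lower level than Slc11a1. It (chr15:100387898-100425072) stood at 13.2 TPM in replicate 1 and 16.4 in replicate 2, a mean of 14.8 ± 2.26 (SD, n = 2), from 4802 and 5261 counts. Its counts split between a transcript with the element and one without. Slc11a2-205, of 4415 nucleotides and ending in the 3′ UTR that holds the element, had 2411 and 3030 counts. Slc11a2-201, of 3025 nucleotides and with another end, had 2362 and 2201 counts.

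The element-bearing form of Slc11a2 took 50.2% of the gene's count in replicate 1, with an exact counting interval of 48.8 to 51.6%. In replicate 2 it took 57.6%, with an interval of 56.2 to 58.9%, and the mean was 53.9 ± 5.21% (SD, n = 2). The second quantification gave 47.6% and 54.7%. As a share of TPM it was 37.5% and 45.1%, since the longer transcript weighs less per count. The share was higher in replicate 2 by each of these measures, and whether this form or the other was the larger depended on the measure. The transcripts share 1708 nucleotides, while 2707 lie only in Slc11a2-205 and 1317 only in Slc11a2-201.

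**Figure D3:**
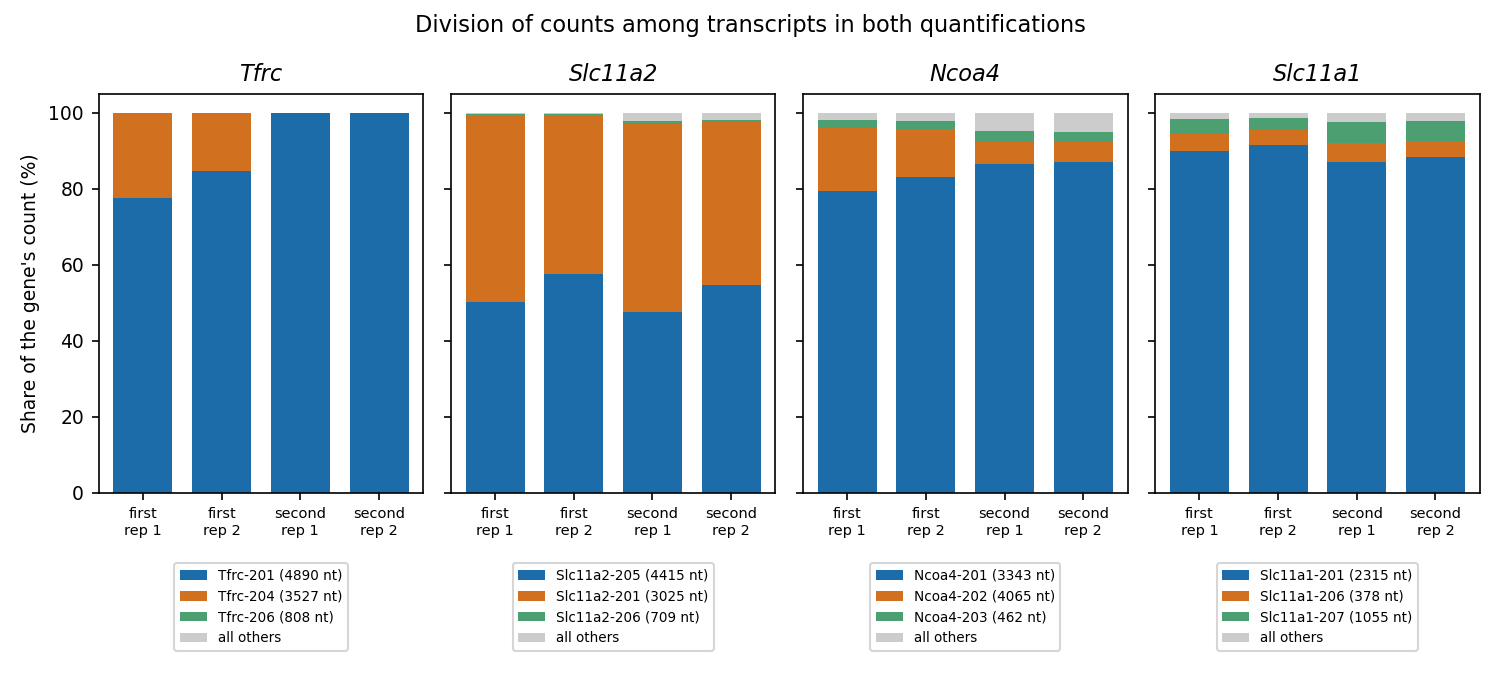
Share of each gene's expected count (percent, vertical axis) by transcript for Tfrc, Slc11a2, Ncoa4 and Slc11a1, with bars for replicates 1 and 2 in the first and then the second deposited quantification. Tfrc-204 takes 22.4% and 15.5% in the first and 0 in the second, while the 2 main Slc11a2 transcripts divide the count in a similar way in all 4 bars.

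Ferroportin, the only known iron exporter of mammalian cells, was encoded by one of the more abundant members. Slc40a1 (chr1:45908068-45926523) stood at 124 TPM in replicate 1 and 111 in replicate 2, a mean of 118 ± 9.28 (SD, n = 2), from 44540 and 33433 counts. Slc40a1-201, which starts with the UTR that holds the element, had 121 and 108 TPM. Transcripts with the element took 99.8% of the count in each library, and a coding form lacking it was not detectable at this depth. The 3 other coding transcripts had 0 counts in both quantifications. By counting alone, each could hold up to 0.00674% in replicate 1 and 0.00897% in replicate 2 of the first quantification. These limits do not allow for reads shared with Slc40a1-201, which holds most of their bases.

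Hmox1 encodes the inducible heme oxygenase, which opens the heme ring and frees its iron. It (chr8:75093621-75100589) stood at 68.1 TPM in replicate 1 and 89.2 in replicate 2, a mean of 78.6 ± 14.9 (SD, n = 2), from 10653 and 11745 counts. The single coding transcript Hmox1-201 held nearly all of it, with 68.1 and 89.1 TPM. In the second quantification the libraries differed less on the TPM scale, at 33.5 and 33.7.

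The regulators were the least abundant members. Aco1 encodes iron regulatory protein 1, which is a cytosolic aconitase when it holds an iron-sulfur cluster and binds the element when it does not. It (chr4:40143081-40198338) stood at 7.80 TPM in replicate 1 and 9.48 in replicate 2, a mean of 8.64 ± 1.19 (SD, n = 2), from 3250 and 3333 counts. Ireb2 encodes iron regulatory protein 2, which is degraded when iron is plentiful. It (chr9:54863789-54912530) stood at 6.99 and 6.88 TPM, a mean of 6.94 ± 0.0778, from 4502 and 3559 counts. The libraries did not overlap with those of the other regulator, and the Aco1 mean was 1.25 times that of Ireb2. Each gene had a single transcript above 5% of its count, Aco1-201 and Ireb2-201.

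Across the members, 5 were higher in replicate 2 by scaled counts and 5 were lower, where 45.4% of the 10091 genes were higher. The higher ones were Tfrc, Slc11a1, Hmox1 at a ratio of 1.26, Slc11a2 at 1.25 and Aco1 at 1.17. The lower ones were Ireb2 at 0.905, Ncoa4 at 0.884, Ftl1 at 0.864, Slc40a1 at 0.859 and Fth1 at 0.758. All 3 uptake genes stood on the higher side, and all 3 storage genes and the exporter stood on the lower side. The members' median ratio was 1.03 and that of all these genes 0.983.

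None of the 10 members was over 2-fold apart between the libraries, and 1.60% of the background genes were. Tfrc and Slc11a1 exceeded 1.5-fold, a limit added after the values were seen. In the background, 3.53% of genes were over 1.5-fold higher in replicate 2 and 1.32% over 1.5-fold lower. No counting interval of a member included 1, but these intervals cover counting error only and say nothing of the spread between cultures. No member's ratio of scaled counts changed side of 1 under the other scalings or with the counts of the second quantification. On its TPM scale the direction turned for Slc11a2, at 8.13 TPM in replicate 1 and 7.59 in replicate 2, and for Aco1, at 3.83 and 3.62.

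**Figure D4:**
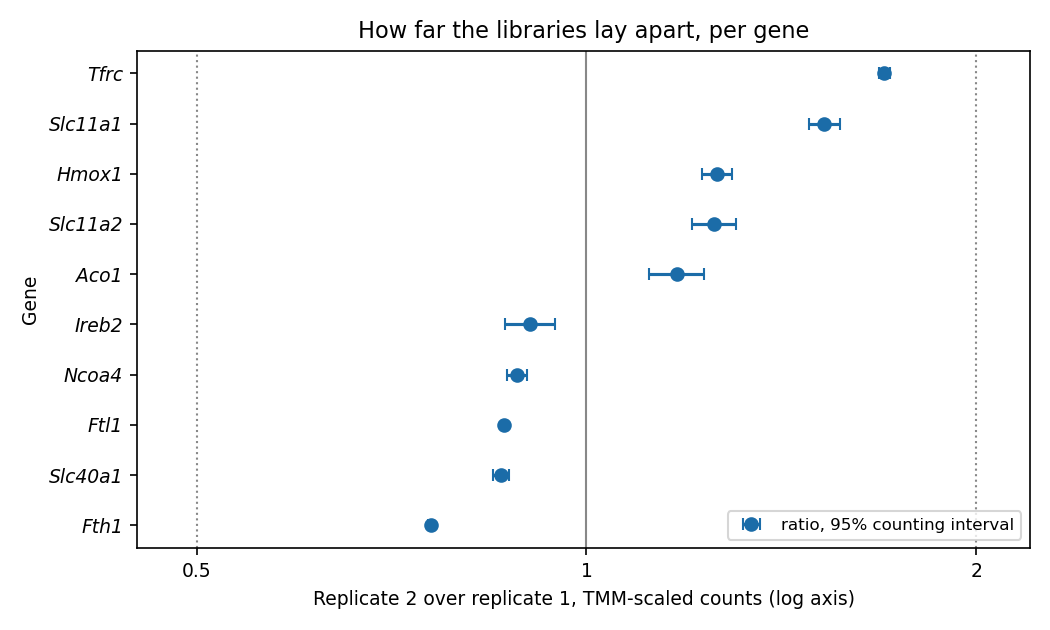
Ratio of replicate 2 to replicate 1 in TMM-scaled counts (log axis) for each gene, with 95% exact counting intervals, a solid line at 1 and dotted lines at 0.5 and 2. Tfrc at 1.70 and Slc11a1 at 1.53 lie farthest to the right, Fth1 at 0.758 lies farthest to the left, and no gene passes a dotted line.

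Transcript length moved with the ratio. Protein-coding genes averaging at least 100 counts whose leading transcript was under 1000 nucleotides, as in Ftl1 and Fth1, had a median ratio of 0.877 over 654 genes. The median was 0.953 for 1000 to 2000 nucleotides, the class of Hmox1, and 0.988 for 2000 to 4000, the class of Ncoa4, Slc11a1, Slc40a1 and Aco1. It was 1.01 for longer transcripts, which include those of Tfrc, Slc11a2 and Ireb2. The Ftl1 ratio of 0.864 was close to its class median, and the Fth1 ratio of 0.758 lay below it. The ratios of Tfrc, Slc11a1, Hmox1, Slc11a2 and Aco1 lay above their class medians, and those of Ncoa4, Slc40a1 and Ireb2 below. The part of length in the members' ratios was not tested.

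RNA that normally stays in the nucleus also moved with the library. Malat1 and Neat1, nuclear RNAs chosen after their values were seen, had ratios of 4.68 and 4.06. In protein-coding genes with at least 10 such counts on average, the median share of counts in transcripts with a retained intron was 3.07% in replicate 2 and 1.42% in replicate 1, and 81.8% of 3244 genes were higher in replicate 2. Of the 8 members with as many such counts in the first quantification, 7 were higher in replicate 2, close to that background. Tfrc was the exception, through Tfrc-204. Ireb2 had 0.245% in replicate 1 and 1.57% in replicate 2, and Slc11a1 had 0.732% and 1.21%. Slc11a2 was near the limit, with 6.77 and 14.05 such counts. In the second quantification its share was lower in replicate 2, at 0.599% against 0.852% in replicate 1. The part of nuclear RNA in the members' ratios was not tested.

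By summed marker levels, the cells carried the RNA of macrophages and little of other types. All 10 macrophage markers were detected, with summed levels of 6685 TPM in replicate 1 and 7050 in replicate 2. Of 10 erythroid markers 1 was detected, Epor, and the list summed to 0.80 and 1.49 TPM, with Hba-a2, Hbb-bt and Slc4a1 among those at 0. Red-cell precursors, which hold much ferritin and transferrin receptor, thus left almost no marker RNA. Of 10 neutrophil markers 4 were detected: S100a9 at a mean of 17.25 TPM, S100a8 at 9.735, Mmp8 at 3.555 and Ngp at 2.32. That list summed to 32.3 and 34.5 TPM, and its Ly6g was at 0. None of 8 lymphoid or 8 stromal and endothelial markers was detected, with sums of 0.03 and 0.18 TPM and of 0.25 and 0.41 TPM. In such bulk RNA, fewer cells of a type and less RNA per cell cannot be told apart. Reads of overlapping genes are uncertain, since the strand of counting is not given in the sources used here: Gm10252, opposite Ftl1, had 354 and 373 counts, and Gm5475, opposite Slc11a2, had 16 and 47.

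The rest of the iron pathway was read from 75 related genes grouped by role, of which 50 were detected. The median over all 75 was 2.48 TPM, against 0.11 over all protein-coding genes. The background for the counts by role here and below is the 39.3% of protein-coding genes detected at 1 TPM. Among storage and release genes 5 of 7 were detected. The iron chaperones that load ferritin, Pcbp2 and Pcbp1, had 117 ± 13.0 and 45.5 ± 1.05 TPM (SD, n = 2 here and below). Tax1bp1, an adaptor in ferritin turnover, had 42.4 ± 0.467 TPM, and Herc2, a ligase that acts on Ncoa4, had 5.55 ± 0.842. Mitochondrial ferritin, Ftmt, was at 0 and Pcbp3 at 0.125 TPM. The 2 chaperones were thus of the same order as Ncoa4 and far below the ferritin chains.

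Of uptake and trafficking genes 8 of 16 were detected. Transferrin itself, Trf, had 211 ± 59.5 TPM, near the level of its receptor Tfrc. Ndfip1, which directs Slc11a2 protein to degradation, had 49.2 ± 2.19 TPM, above the 14.8 of Slc11a2. Mcoln1, a lysosomal channel that releases iron, had 13.5 ± 2.38 TPM, and the endosomal ferrireductase Steap3 had 7.50 ± 1.20 TPM. Ltf, the lactoferrin gene, had 0.38 and 0.72 TPM from 74 and 177 counts, a ratio of 2.73, and was the only related gene over 2-fold apart among the 55 averaging at least 100 counts.

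Of genes for export control and the hepcidin axis 5 of 11 were detected. The receptor gene Bmpr2 had 9.51 ± 0.827 TPM, Bmp2 had 9.10 ± 0.191, Smad4 had 7.14 ± 0.658 and Acvr1 had 1.97 ± 0.248. Hamp and Hamp2, the hepcidin genes whose product removes ferroportin from the membrane, were listed at 0 in both libraries of the first quantification. Heph, Hfe2, Bmp6 and Tmprss6 were listed at 0 there as well. In the second quantification Hamp had a mean of 0.0211 TPM and Heph 0.0004, both far below the detection threshold. Slc40a1 RNA was therefore present while RNA of its hormone did not reach 1 TPM.

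Of heme genes 12 of 17 were detected. Lrp1, a receptor for heme bound to hemopexin, had 133 ± 60.8 TPM, with 89.7 in replicate 1 and 176 in replicate 2 and a ratio of 1.85. Nfe2l2, the factor that activates Hmox1, had 106 ± 11.3 TPM. The biliverdin reductases that act after heme oxygenase, Blvrb and Blvra, had 43.1 ± 2.60 and 29.97 ± 0.735 TPM. Below 1 TPM were Flvcr2, Abcg2, Hpx, Hp and Cd163, the last a receptor for hemoglobin with haptoglobin, at 0.435 TPM.

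Other RNAs known or searched for an element were scarce beside ferritin. Of 5 regulatory and element-bearing genes 2 were detected, among them Epas1, a hypoxia-responsive transcription factor, at 1.39 ± 0.184 TPM. The 5′ UTR of Epas1 held a match by the wider search. Alas2, the erythroid enzyme of heme synthesis, held a match by the first search. It was at 0 TPM in the first quantification and at a mean of 0.0146 in the second. Cdc14a at 0.99 TPM and Cdc42bpa at 0.90 held none. Of 19 genes for mitochondrial iron, heme and iron-sulfur synthesis 18 were detected, led by Alas1 at 34.0 ± 6.89, Iscu at 22.0 ± 0.361, the iron importer Slc25a37 at 10.7 ± 2.06 and Fech at 7.18 ± 0.700 TPM.

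**Figure D5:**
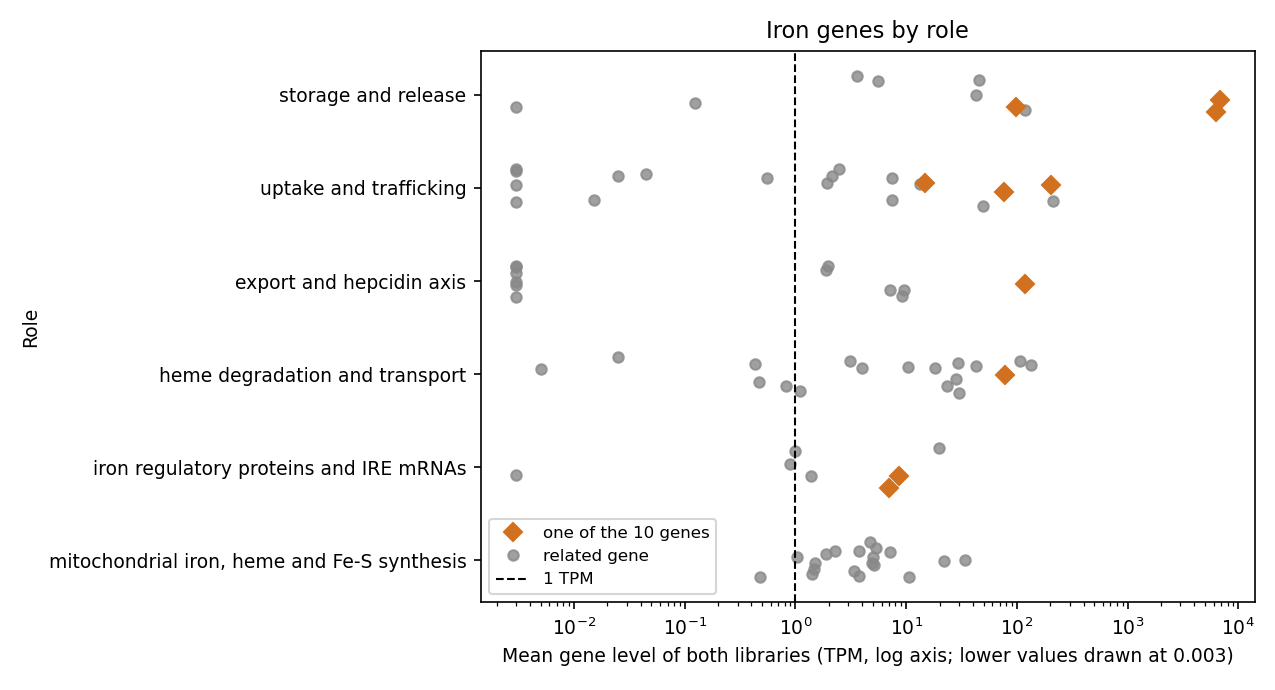
Mean level in TPM (log axis, values under 0.003 drawn at 0.003) of the 10 members (diamonds) and 75 related genes (circles) by role, with a dashed line at 1 TPM. The diamonds all lie right of the line, and the 2 at the far right are Ftl1 at 6771 TPM and Fth1 at 6293 TPM.

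By ratio, the related genes lay near the background. Among those averaging at least 100 counts, the median ratio was 1.01, against 0.983 for all genes. Higher in replicate 2 were 7 of 9 uptake and trafficking genes, 8 of 14 heme genes and 3 of 5 export and hepcidin genes. Higher too were 2 of 5 storage genes, 2 of 4 regulatory genes and 8 of 18 mitochondrial genes. The 45.4% of all genes on that side is the background for these counts, and neither they nor the split of the members by role were tested.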

How the data were processed

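RNA abundance was deposited per library in 2 quantifications. Per the deposited readme files, all tables used mm10 and annotation M21, the first quantification coming from transcriptome alignments and the second from reads without them. Which aligner, quantifier, version and strand setting were used is not given in the sources used here. Expected counts, deposited without normalization per the file headers, estimate how many fragments came from a gene or transcript. TPM was deposited by the authors, corrected for effective length and scaled to a fixed sum over each table, per the file headers. The deposited effective lengths and posterior SDs were read only as background.

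Members were joined by gene identifier, and symbols, biotypes and coordinates came from GENCODE M21. Counts over genes were 55596625 in replicate 1 and 50157146 in replicate 2, which leaves counting error small for every member. The second quantification held 65933328 and 62889522. Entries that name no gene, spike-ins among them, held 0.251% and 0.204% and were left out. Expected counts were rounded and scaled by TMM in edgeR 4.0.16 (R 4.3.3) over genes averaging at least 10 counts, and 0.5 was added before ratios. Ratios were used from an average of 100 counts, with exact (Clopper-Pearson) 95% intervals that cover counting error only. DESeq2 1.42.0 gave alternative size factors. Near-identical transcripts were sought with blastn 2.17.0, at 95% identity over 50% of the leading transcript. Python 3.11.15 (scipy 1.17.1, pandas 2.3.3, numpy 2.4.6; figures, matplotlib 3.10.9) did the rest. Ratios were tested on simulated counts with counting error only. The first element search was tested on planted elements built by its own rule, and the wider search was not tested this way.

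A single group of 2 libraries allows no comparison of groups, so no p-value is given. The members and the gene lists were chosen with earlier results of these data known. Named are the 10 members, their transcripts with 5% or more of the count, ferritin copies, and of each related list up to 4 of highest TPM, any over 2-fold apart and, where 5 or fewer, those below 1 TPM; some of these are not reported here. Gm6768, Gm10252, Gm5475, Malat1, Neat1, minor transcripts and further genes at 0 were named after their values were seen.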

Additional observations from a re-analysis of the deposited data

How the results depend on the processing

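All 10 members were detected under each alternative run, from thresholds of 0.5 to 5 TPM, and none was over 2-fold apart under any scaling; at 1.5-fold, a limit chosen after seeing the data, 2 were. The members' median was 40.5 TPM in the second quantification and 407 with TPM taken over nuclear-encoded protein-coding genes. With leading transcripts alone, also chosen after seeing the data, it was 70.1. Without each replicate in turn it was 85.2 to 92.8 TPM. Related genes detected numbered 29 at 5 TPM, 40 in the second quantification, and 50 to 51 without each replicate. The Fth1 to Ftl1 ratio ranged from 0.867 to 0.986 without each replicate. The element-bearing share of Slc11a2 was 41.3% of TPM, and 50.2 to 57.6% of counts without each replicate. The cause of these shifts was not tested, except that the TPM scale, the length and the threshold differ by construction. Single members' levels moved by more than 1 SD for all 10 under the second quantification and the coding scale, and for 4 with leading transcripts alone. No paired analysis was possible because all libraries belong to 1 group. With 2 libraries, an SD is itself poorly known; the depth limits the minor transcripts, and reads shared among transcripts limit the divisions of Tfrc and Fth1.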
